A study of Mus musculus with 11 samples.

Results

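Msx1, Msx2, Alx1 and Alx4 encode homeobox transcription factors of the craniofacial mesenchyme. They are 4 of the 18194 genes named on the array, and were followed through every probe set whose single symbol in the array annotation is one of these names, which gave 7 of 45101 probe sets: 1448601_s_at and 1417127_at for Msx1, 1449559_at and 1438351_at for Msx2, 1435022_at and 1456454_at for Alx1 and 1421737_at for Alx4. The first of each pair is the brighter one. The tissue came from ICR mouse embryos, for which the labels give no mutation or drug treatment, and was dissected from the mandibular arch, the paired swelling that forms the lower jaw and the front of the tongue. As described for E10.5, medial tissue is the distal end of the arch and lateral tissue is the rest of it. The 6 groups were medial E9.7 (1 array), lateral E9.7 (1 array), medial E10.5 (3 arrays), lateral E10.5 (3 arrays), medial E11.5 (2 arrays) and medial E14.5 (1 array). The E14.5 sample is labelled as the front part of the tongue, so stage and dissection changed together there. Each array is labelled as RNA of 40 embryos, and the design text speaks of 1 such pool per time point, so p-values here measure only the spread between arrays, which may be technical.

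Msx proteins act mainly as transcriptional repressors and are well-known responders to bone morphogenetic protein (BMP) signals. In the mouse, Msx1 is needed for tooth and palate formation, and Msx2 for skull bones, teeth and skin appendages. Alx proteins are paired-type (aristaless-like) homeodomain factors. Mouse Alx1, formerly Cart1, is needed for head mesenchyme over the forebrain, and mouse Alx4 for normal digit number and, together with Alx1, for fusion of the facial midline. In the early mouse face the Msx genes mark distal and medial prominence tissue, and the BMP ligand gene Bmp4 is expressed in the same parts.

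The stretches before the starts of Msx1 and Msx2 are shown because these 2 genes, which lie on different chromosomes, had the most similar courses of the 4 over the arrays. Of the 4 genes, 2 had an entry in the RefSeq promoter table (GRCm38.p6); Alx1 and Alx4 did not. Each line gives the 250 bases before the annotated start, 5′ to 3′ on the gene's strand, and capitals mark matches to the letters CCAAT, to the letters GGGCGG or to the letters TAATTA on either strand.
Msx1, chr5:37824586-37824835, minus strand: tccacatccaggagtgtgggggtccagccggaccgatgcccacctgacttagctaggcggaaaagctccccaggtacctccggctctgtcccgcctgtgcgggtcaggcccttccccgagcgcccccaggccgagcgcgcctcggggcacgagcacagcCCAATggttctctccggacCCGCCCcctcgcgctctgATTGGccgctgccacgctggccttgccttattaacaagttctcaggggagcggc
Msx2, chr13:53472781-53473030, minus strand: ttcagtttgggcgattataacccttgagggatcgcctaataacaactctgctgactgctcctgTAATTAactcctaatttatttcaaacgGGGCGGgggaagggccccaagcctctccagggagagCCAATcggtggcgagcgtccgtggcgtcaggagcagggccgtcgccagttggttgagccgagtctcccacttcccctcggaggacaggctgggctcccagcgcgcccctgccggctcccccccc

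Both windows held the CCAAT and GGGCGG letters. In Msx1, CCAAT began 91 bases before the start, its reverse complement ATTGG 54 bases before it and the reverse complement of GGGCGG 72 bases before it. In Msx2, CCAAT began 124, GGGCGG 160 and TAATTA 187 bases before the start. Over the 32851 promoter windows of this length, 33.8% held CCAAT, 32.7% held GGGCGG and 4.84% held TAATTA on either strand, so the first pair is common. The motifs do not overlap each other, and TAATTA, the core read by many homeodomains, was found in the Msx2 window and not in the Msx1 window. GGCGCC, which 9.59% of windows held, and TATAAA, which 12.4% held, were found in neither. The Msx1 window had 68% G and C bases and the Msx2 window 61.6%, against a median of 52.4%. The motifs were chosen with the sequences in view, and a match is a description of letters only.

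Values are log2 signals after quantile normalization across the 11 arrays. As deposited, 9 arrays had medians of 5.20 to 5.73, while replicate 1 of the medial E10.5 group had 2.37 and replicate 1 of the medial E11.5 group 2.47. The tested member differences are given with and without these 2 arrays of low signal, while some other values are given with all arrays only. The median of all values, 4.86, is the filter level: to be tested, a probe set had to reach it on 2 or more of the 8 arrays from groups with replicates. This left 24399 probe sets, 6 of them members; the dimmer Msx2 probe set, 1438351_at, lay at 2.52 to 3.31 on every array and was not tested. Alx4 passed the filter solely through medial E10.5 arrays, and the dimmer Alx1 probe set solely through medial arrays of E10.5 and E11.5. The number of arrays limits the precision. In these pieces of tissue, fewer cells of a type and less RNA per cell cannot be told apart. Of 7 mesenchyme markers of the mandibular arch (Dlx5, Dlx6, Hand2, Prrx1, Prrx2, Twist1 and Pdgfra), none had a group mean under the filter level at E9.7 or E10.5, while Dlx5 and Dlx6, distal-less genes that pattern the lower jaw, lay under it at E11.5 and E14.5. Of 3 Hox markers of the second and more caudal arches, Hoxa2 lay under it in every group, Hoxa3 was above it at E11.5 and E14.5 and Hoxb2 in medial tissue from E10.5 on, at means of at most 5.18.

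**Figure D1:**
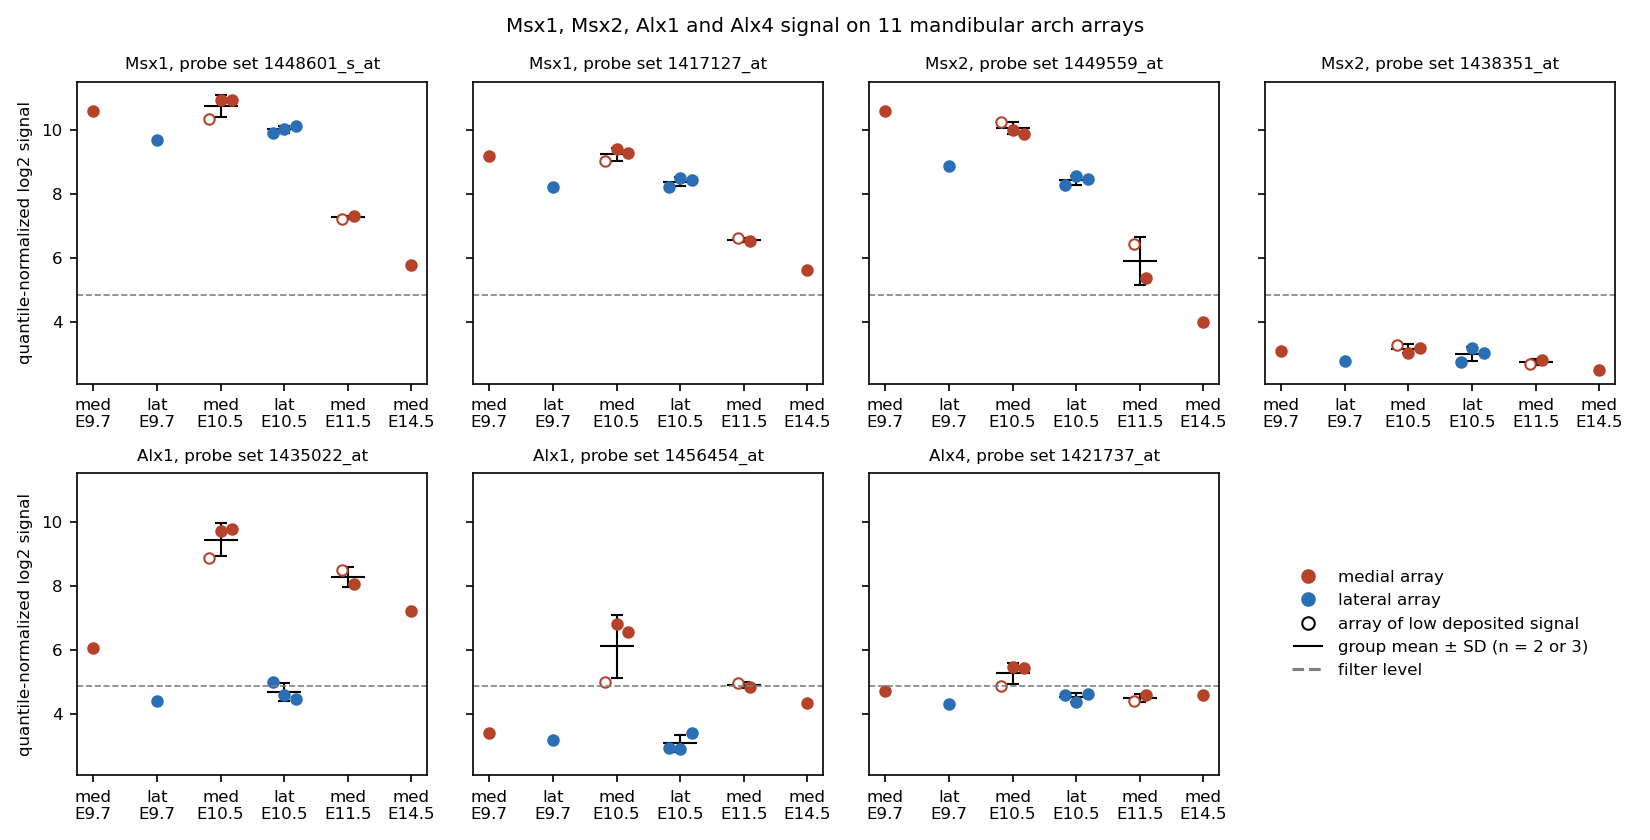
Quantile-normalized log2 signal (vertical axis) of the 7 member probe sets in the 6 groups (horizontal axis); each point is an array, open points are the 2 arrays of low deposited signal, bars are group mean ± SD and the dashed line is the filter level of 4.86. Msx1 and the brighter Msx2 probe set are high at E9.7 and E10.5 and low at E11.5 and E14.5, while Alx1 is highest in medial E10.5 and its brighter probe set remains above 7 in later medial tissue.

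The series was designed to compare expression between medial and lateral tissue, and at E10.5 this could be tested with 3 arrays per side. Msx2 was higher in medial tissue by 3.06-fold, Alx1 by 23.8-fold and 2.38-fold for its brighter and dimmer probe sets when measured against the filter level, since its lateral means lay under it, 1 of the 2 Msx1 probe sets was higher by 1.80-fold, and Alx4 did not pass the test. In all, 4 of 6 tested member probe sets were higher and 0 were lower (limma with Benjamini-Hochberg adjustment over all 24399 probe sets, adjusted p under 0.05), against a background of 1.88% of probe sets called higher and 1.06% called lower. Without the 2 arrays of low signal, 6 of 6 were higher, where 675 of all 24399 probe sets were called higher and 317 lower, against 459 and 259 with all arrays. All 6 had medial and lateral arrays that did not overlap, which held in this direction for 10.4% of tested probe sets. Alx4 and the dimmer Alx1 probe set passed the filter solely through medial arrays, so in these counts their medial excess was favoured in advance. That Alx1 probe set is among the 4 of 6.

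Msx2 (1449559_at) had 10.25, 10.001 and 9.89 in medial E10.5 tissue, against 8.28, 8.56 and 8.47 in lateral E10.5 tissue. The lowest medial array thus lay 1.33 above the highest lateral array. The difference was 1.61 ± 0.25 on the log2 scale (± SE, limma adjusted p = 0.00895), a 3.06-fold excess in medial tissue. The array of low signal was the highest of the medial arrays here, and without the 2 arrays of low signal the difference was 1.51 ± 0.12 (limma adjusted p = 0.00263).

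Msx1 was read by 2 probe sets annotated to the same sequence record. The dimmer one, 1417127_at, had 9.03, 9.41 and 9.29 in medial tissue, against 8.23, 8.52 and 8.43 in lateral tissue. The brighter one, 1448601_s_at, had 10.36, 10.94 and 10.94 in medial tissue, against 9.92, 10.02 and 10.12 in lateral tissue. In both, every medial array lay above every lateral array, and the array of low signal, replicate 1, was the lowest of the medial arrays. The differences were close to each other, at 0.85 ± 0.14 (limma adjusted p = 0.0117) and 0.73 ± 0.17 (limma adjusted p = 0.0679), so one probe set passed and the other did not. Without the 2 arrays of low signal they were 0.96 ± 0.12 (limma adjusted p = 0.0115) and 0.92 ± 0.10 (limma adjusted p = 0.00775). The call of the dimmer probe set was lost without medial replicate 2 (limma adjusted p = 0.0547), lateral replicate 1 (limma adjusted p = 0.0554) or lateral replicate 3 (limma adjusted p = 0.0587), while the brighter one passed with 1 probe set per gene (limma adjusted p = 0.0426), trend and robust options (limma adjusted p = 0.0264), array weights (limma adjusted p = 0.0014) or a fixed effect for groups of arrays with like hybridization control probe sets, the control-probe groups (limma adjusted p = 0.00607). In all, the brighter one passed in 6 of 17 alternative tests and the dimmer one in 12 of 16.

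Alx1 had the widest separation of the members. The brighter probe set, 1435022_at, had 8.85, 9.697 and 9.76 in medial tissue, against 5.001, 4.59 and 4.48 in lateral tissue, and the gap between the nearest arrays was 3.85. The difference of 4.75 ± 0.26 (limma adjusted p = 6.74e-05) ranked 2 among the medial excesses of the 24399 probe sets. The lateral mean of 4.69 lay under the filter level, where the size of a difference is uncertain; measured against the filter level itself, the medial mean was 4.58 higher, or 23.8-fold. The dimmer probe set, 1456454_at, had 4.99, 6.80 and 6.55 in medial tissue, against 2.95, 2.90 and 3.40 in lateral tissue. Its difference was 3.03 ± 0.41 (limma adjusted p = 0.00478), and the medial mean exceeded the filter level by 1.25. Replicate 1, of low signal, was again the lowest medial array in both; without both arrays of low signal the differences were 5.04 ± 0.17 (limma adjusted p = 0.000487) and 3.59 ± 0.18 (limma adjusted p = 0.00113).

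Alx4 had 4.87, 5.47 and 5.44 in medial tissue, against 4.58, 4.36 and 4.62 in lateral tissue. The arrays did not overlap, but the lowest medial value sat at the filter level and all lateral values under it. The difference was 0.74 ± 0.18 (limma adjusted p = 0.0747). Without the 2 arrays of low signal it was 0.93 ± 0.12 (limma adjusted p = 0.0109), and it passed with 1 probe set per gene (limma adjusted p = 0.0475), array weights (limma adjusted p = 0.00181) or control-probe group as a fixed effect (limma adjusted p = 0.00802). In all, Alx4 passed in 5 of 16 alternative tests. It did not pass with trend and robust options (limma adjusted p = 0.125), array centring (limma adjusted p = 0.164) or the replicate block (limma adjusted p = 0.121). The dimmer Msx2 probe set had 3.31, 3.05 and 3.20 in medial tissue, against 2.77, 3.20 and 3.06 in lateral tissue, and these overlapped.

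The labels name no batch, so the arrays were also grouped by how their hybridization control probe sets read. In the group that held medial replicate 2 and lateral replicate 1, the differences were 1.18 and 1.02 for the dimmer and brighter Msx1 probe sets, 1.72 for Msx2, 4.70 and 3.85 for the brighter and dimmer Alx1 probe sets and 0.89 for Alx4. In the group that held medial replicate 3 and lateral replicates 2 and 3, they were 0.81 and 0.87, 1.38, 5.23 and 3.40, and 0.95, in the same order. All 6 tested member probe sets were thus higher in medial tissue within both groups. For Alx4 and the dimmer Alx1 probe set, which passed the filter solely through medial arrays, this was favoured in advance. The share of all probe sets with this direction in both groups was not computed. With these groups as a fixed effect, 6 of 6 were called higher, where 1176 of all probe sets were called higher and 666 lower. These values share arrays with the pooled differences.

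**Figure D2:**
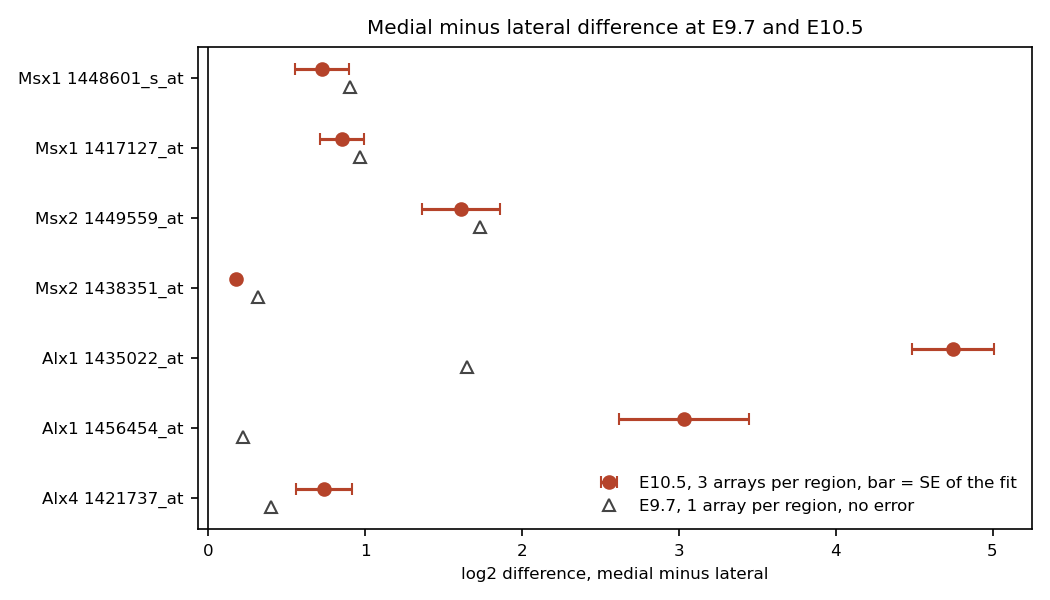
Medial minus lateral log2 difference (horizontal axis) of each member probe set at E10.5 (filled circles, 3 arrays per region, bar = SE of the fit; none for the untested dimmer Msx2 probe set) and at E9.7 (triangles, 1 array per region, no error). For Msx1 and Msx2 the E9.7 value lies close to the E10.5 value, whereas the brighter Alx1 probe set is at 4.75 at E10.5 and at 1.65 at E9.7.

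At E9.7, with 1 array per region and no test, the same direction was measured for all 7 probe sets. Alx4 and the dimmer Alx1 and Msx2 probe sets lay under the filter level on both arrays. The share of all probe sets with this direction was not computed. Msx2 had 10.60 in medial tissue, against 8.87 in lateral tissue, a difference of 1.73. The dimmer Msx1 probe set had 9.18 in medial tissue, against 8.21 in lateral tissue, and the brighter one 10.60 in medial tissue, against 9.69 in lateral tissue, differences of 0.97 and 0.90. For these 3 probe sets the difference at E10.5 minus that at E9.7 was -0.12, -0.12 and -0.18, each no larger than the highest SD of the E10.5 groups for its probe set.

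At E9.7 the Alx genes were under the filter level or, in medial Alx1, moderately above it. The brighter Alx1 probe set had 6.04 in medial tissue, against 4.40 in lateral tissue, a difference of 1.65, which is 3.10 less than at E10.5. The dimmer one had 3.40 in medial tissue, against 3.18 in lateral tissue, both under the filter level. Alx4 had 4.71 in medial tissue, against 4.31 in lateral tissue, likewise both under it. Of the 4 member probe sets that reached the filter level on either array, 2 exceeded 2-fold in the medial direction (brighter Msx2 and Alx1 probe sets), against a background of 0.793%. That Alx1 probe set entered this count solely through its medial array, so its direction was favoured in advance. Whether the region difference itself changed between E9.7 and E10.5 could not be tested with 1 array per region at E9.7.

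From E9.7 to E10.5 in medial tissue, Alx1 was the one of the 4 genes whose level differed most. In medial tissue, the brighter Alx1 probe set averaged 9.44 ± 0.51 at E10.5 (SD, n = 3), against 6.04 on the E9.7 array, a difference of 3.39, or 10.51-fold. Every E10.5 array lay at least 2.81 above the E9.7 array. For the dimmer one the difference was 2.71, with E9.7 under the filter level. These were the 2 of 6 member probe sets at least 2-fold beyond the E9.7 array, against a background of 0.551% in that direction. The dimmer Alx1 probe set and Alx4 entered this count solely through E10.5 arrays, so their direction was favoured in advance. Over all probe sets, 136 were higher and 69 lower in this comparison, and after median centring of the arrays 102 and 119. In lateral tissue, the brighter Alx1 probe set averaged 4.69 ± 0.28 at E10.5 (SD, n = 3), against 4.40 at E9.7, and 0 of 4 member probe sets were 2-fold apart in either direction, against a background of 1.6%, with 182 probe sets higher and 208 lower (101 and 389 with centring).

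For the Msx genes these stages were less than 2-fold apart. In medial tissue the dimmer Msx1 probe set averaged 9.24 ± 0.20 at E10.5 (SD, n = 3), against 9.18 at E9.7, and the brighter one 10.75 ± 0.34 at E10.5 (SD, n = 3), against 10.60 at E9.7. In both, the E9.7 value lay among the E10.5 arrays, and the differences of 0.07 and 0.15 turned to -0.27 and -0.21 with centring. Msx2 averaged 10.05 ± 0.19 in medial E10.5 tissue (SD, n = 3), against 10.60 at E9.7, and 8.44 ± 0.14 in lateral E10.5 tissue (SD, n = 3), against 8.87 at E9.7. All E10.5 arrays of Msx2 were thus lower than the E9.7 array of their region, with differences of -0.55 and -0.43. The share of all probe sets with such an order was not computed.

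Between E10.5 and E11.5, both Msx genes fell sharply in medial tissue. Of 6 tested member probe sets, 3 were lower at E11.5 and 0 were higher (limma with Benjamini-Hochberg adjustment, adjusted p under 0.05), against a background of 1.62% called lower and 2.68% called higher. These were both Msx1 probe sets and the tested Msx2 probe set. Without the 2 arrays of low signal, which leaves 1 array at E11.5 whose spread is assumed to be that of the other groups, 6 of 6 were lower, where 334 of all probe sets were called lower and 564 higher, against 395 and 653 with all arrays. In all 6 the E11.5 and E10.5 arrays did not overlap, which held in this direction for 13% of tested probe sets. Alx4 passed the filter solely through medial E10.5 arrays, so its direction here was favoured in advance.

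Msx2 had 6.45 and 5.39 in medial E11.5 tissue, against 10.25, 10.001 and 9.89 in medial E10.5 tissue. The 2 later arrays differed by more than 1 unit from each other, with the array of low signal the higher, but the gap to the nearest E10.5 array was 3.44. The difference of -4.13 ± 0.28 (limma adjusted p = 8.59e-05), 17.5-fold, ranked 3 among the decreases of the 24399 probe sets. Without the 2 arrays of low signal, which leaves 1 array at E11.5, the difference was -4.56. Between arrays grouped together by their control probe sets, it was -4.61 for replicate 2 of both stages and -3.80 for replicate 1 of both, the arrays of low signal.

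The brighter Msx1 probe set had 7.24 and 7.31 at E11.5, against 10.36, 10.94 and 10.94 at E10.5. The dimmer one had 6.62 and 6.53 at E11.5, against 9.03, 9.41 and 9.29 at E10.5. The E11.5 arrays lay within 0.1 of each other in both probe sets, far below the E10.5 arrays. The differences were -3.47 ± 0.19 (limma adjusted p = 4.23e-05), 11.1-fold, and -2.67 ± 0.16 (limma adjusted p = 5.28e-05), 6.36-fold. Without the 2 arrays of low signal they were -3.63 and -2.82. Both Msx genes in medial E11.5 tissue were also below every lateral array of E9.7 and E10.5. They remained above the filter level at E11.5. Between arrays grouped together by their control probe sets, the brighter probe set differed by -3.63 for replicate 2 and -3.12 for replicate 1, and the dimmer one by -2.89 and -2.41.

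The Alx genes had smaller differences at E11.5, and none passed with all arrays. The brighter Alx1 probe set had 8.49 and 8.06 at E11.5, against 8.85, 9.697 and 9.76 at E10.5, a difference of -1.17 ± 0.29 (limma adjusted p = 0.069). The dimmer one had 4.96 and 4.84 at E11.5, against 4.99, 6.80 and 6.55 at E10.5, a difference of -1.21 ± 0.46 (limma adjusted p = 0.25), and the lowest E10.5 array was only 0.03 above the higher E11.5 array. Alx4 had 4.40 and 4.59 at E11.5, against 4.87, 5.47 and 5.44 at E10.5, a difference of -0.76 ± 0.20 (limma adjusted p = 0.0797). Without both arrays of low signal, the differences were -1.67 ± 0.23 for the brighter Alx1 probe set (limma adjusted p = 0.0156), -1.83 ± 0.24 for the dimmer one (limma adjusted p = 0.0144) and -0.86 ± 0.16 for Alx4 (limma adjusted p = 0.0417). Leaving out medial E10.5 replicate 1 alone also gave 3 calls here. With the 2 arrays of low signal kept, the brighter Alx1 probe set also passed with array centring (limma adjusted p = 0.0213), 1 probe set per gene (limma adjusted p = 0.0447), trend and robust options (limma adjusted p = 0.0387) or array weights (limma adjusted p = 0.0371). Alx4 passed with the replicate number as a block (limma adjusted p = 0.0465) or control-probe group as a fixed effect (limma adjusted p = 0.0183). With these 2 settings the brighter Alx1 probe set did not pass (limma adjusted p = 0.0598 and limma adjusted p = 0.0525). Alx4 did not pass with array centring (limma adjusted p = 0.292), trend and robust options (limma adjusted p = 0.134) or array weights (limma adjusted p = 0.0684). Between arrays grouped together by their control probe sets, the brighter Alx1 probe set differed by -1.64 for replicate 2 and by -0.36 for replicate 1, the dimmer one by -1.96 and -0.03 and Alx4 by -0.88 and -0.47, so these sizes rest on which arrays are compared.

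**Figure D3:**
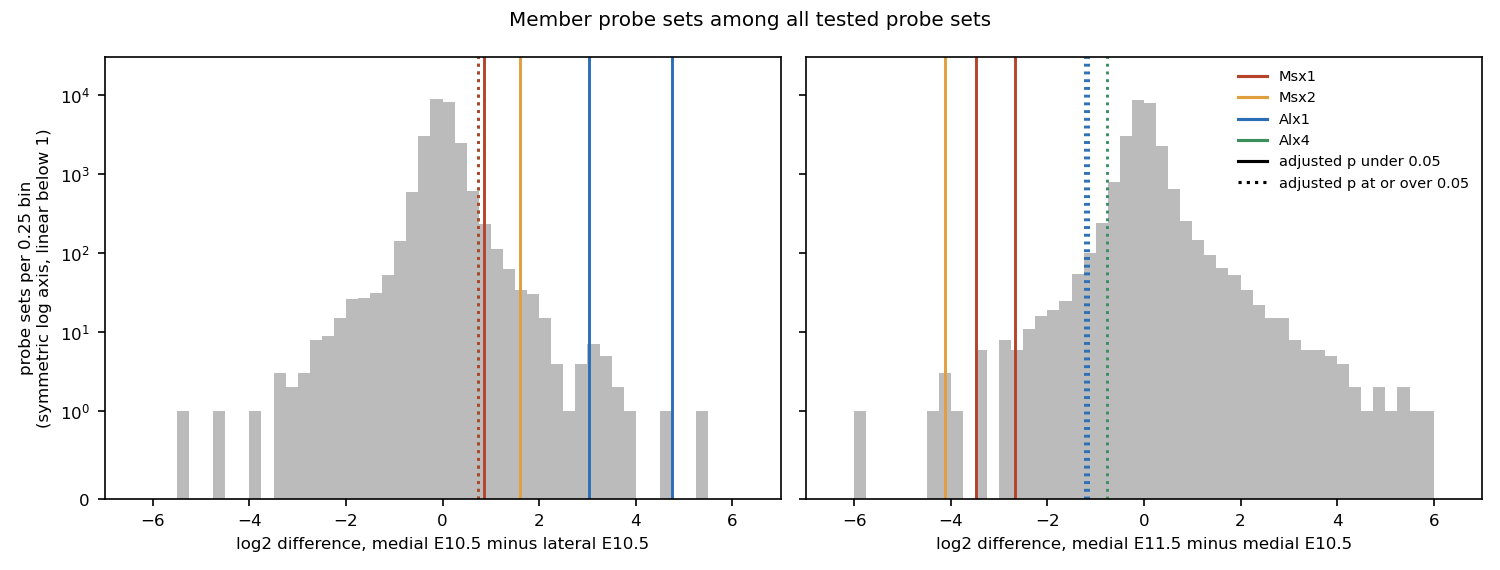
Number of tested probe sets (vertical axis, symmetric log scale, linear below 1) by log2 difference (horizontal axis, bins of 0.25), for medial E10.5 minus lateral E10.5 and for medial E11.5 minus medial E10.5; vertical lines mark the 6 tested members, solid where the adjusted p was under 0.05 and dotted otherwise. At E10.5 the Alx4 line at 0.74 lies almost under the dotted Msx1 line at 0.73, and the Alx1 line at 4.75 is far out in the medial direction; at E11.5 the Msx2 line at -4.13 and both Msx1 lines are far out in the direction of loss.

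Markers of other cell types differed between the stages as well. Of 6 muscle markers, 6 were higher at E11.5 than at E10.5, with a median difference of 4.11 against -0.02 over all tested probe sets. Their summed signal on the log2 scale was 10.7 to 11.2 at E11.5, against 6.774 to 6.9998 at E10.5, where 5 of the 6 lay under the filter level. Of 9 epithelial markers, 5 were lower, with summed signals of 10.51 to 10.52 on the E11.5 arrays, against 11.45 to 11.58 on the E10.5 arrays. Of the 7 mesenchyme markers, 5 were lower, among them Prrx1 with a difference of -2.13 and Dlx5 with one of -3.92, while Pdgfra, a receptor gene of mesenchyme, differed by 0.69 ± 0.17 (limma adjusted p = 0.0661). Of 7 endothelial markers 2 were lower, all 3 tested macrophage markers and 1 of 3 tested neuronal markers were higher, and 0 of 4 red cell markers passed. Without the 2 arrays of low signal, 3 mesenchyme markers were lower and 1 higher, 6 epithelial markers and 1 red cell marker were lower and 2 macrophage markers were higher. The part of these changes in the Msx result was not tested.

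At E10.5, markers of other cell types differed between regions too. Of 9 epithelial markers, 5 were higher in medial tissue (7 without the arrays of low signal), with summed signals of 11.45 to 11.58 in medial tissue, against 10.6 to 10.7 in lateral tissue. At E9.7 the same sum was 12.1 in medial tissue, against 11.2 in lateral tissue. Of 7 endothelial markers, 2 were higher (3 without those arrays), at 10.2 to 10.3 in medial tissue, against 9.71 to 9.79 in lateral tissue. Of the 6 muscle, 3 tested macrophage, 3 tested neuronal and 4 red cell markers, 0 passed. Msx1 and Msx2 are known in epithelium as well as mesenchyme of the mouse face, and the part of epithelium in their region difference was not tested.

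At E14.5, in tissue labelled as anterior tongue, the Msx genes lay below their E11.5 arrays. The E14.5 array stood alone in the grouping by control probe sets, so that grouping and stage cannot be told apart here. Msx2 had 4.02 at E14.5, under the filter level, against 6.45 and 5.39 at E11.5. The brighter Msx1 probe set had 5.80 at E14.5, against 7.24 and 7.31 at E11.5, and the dimmer one 5.63, against 6.62 and 6.53 at E11.5. The arrays of these 2 stages did not overlap for either gene. Msx2 and the brighter Msx1 probe set were the 2 of 5 member probe sets at least 2-fold below both E11.5 arrays, but the background was 9.1% in that direction, since 2410 probe sets were higher and 2317 lower (3539 and 1838 with centring). Msx2 and the dimmer Alx1 probe set entered this count solely through E11.5 arrays, so their direction was favoured in advance.

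The brighter Alx1 probe set had 7.20 at E14.5, against 8.49 and 8.06 at E11.5, above its medial E9.7 value of 6.04. The dimmer one had 4.33 at E14.5, against 4.96 and 4.84 at E11.5. Alx4 had 4.58 at E14.5, against 4.40 and 4.59 at E11.5, all under the filter level. With 1 array at E14.5 none of these differences was tested, and muscle markers, with a summed signal of 14.3 at E14.5 against 10.7 to 11.2 at E11.5, moved with the stage.

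Ordered by level, the Msx genes and Alx1 ranked the groups differently. For the brighter Msx1 probe set the order was medial E10.5, medial E9.7, lateral E10.5, lateral E9.7, medial E11.5 and medial E14.5, and the dimmer one gave the same order. In both Msx1 probe sets, medial E10.5 and medial E9.7, and lateral E10.5 and lateral E9.7, lay within 2 pooled SD of each other (0.22 and 0.16 per SD), and the other neighbours were farther apart. For Msx2 the order was medial E9.7, medial E10.5, lateral E9.7, lateral E10.5, medial E11.5 and medial E14.5, and the stages of a region at E9.7 and E10.5 again lay within 2 pooled SD (0.37 per SD). For the brighter Alx1 probe set the order was medial E10.5, medial E11.5, medial E14.5, medial E9.7, lateral E10.5 and lateral E9.7, and among neighbours the 2 lateral groups alone were within 2 pooled SD (0.39 per SD). The dimmer one put the medial groups in the same order, with no neighbours beyond 2 pooled SD (0.64 per SD). For Alx4 medial E10.5 stood above the other 5 groups, whose neighbours lay within 2 pooled SD (0.24 per SD).

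Across the 11 arrays, which share groups and stages and are described here with no p, the brighter Msx1 probe set and Msx2 had a Pearson correlation of 0.96 and the 2 Msx1 probe sets one of 0.99. The brighter Alx1 probe set and Alx4 had one of 0.73. Between the families it was -0.06 for Msx1 with Alx1, 0.03 for Msx2 with Alx1 and 0.49 for Msx1 with Alx4, each by its brighter probe set. The dimmer Msx2 probe set, under the filter level throughout, correlated with the brighter one at 0.82.

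Among 11967 other genes with a tested probe set, those most like the brighter Msx1 probe set over the 11 arrays were Celf1 (r = 0.97), which encodes an RNA-binding protein, Cldn6 (0.97), a claudin of embryonic epithelium, Msx2 (0.96), Cep55 (0.96), a gene of cell division, and 2610027K06Rik (0.95). For Msx2 they were Msx1 (0.96), 2610027K06Rik (0.96), Prrx2 (0.96), a paired-type homeobox gene of mesenchyme, Dusp9 (0.95), which encodes a kinase phosphatase, and Ush1c (0.95), which encodes the scaffold protein harmonin. Over the 9 arrays without low signal, 3 of the 5 stayed among the 5 most alike for Msx1 and 3 for Msx2.

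The genes most like the brighter Alx1 probe set were Ets2 (0.96), a transcription factor gene, Frk (0.95), which encodes a tyrosine kinase, Pdgfc (0.95), which encodes a growth factor ligand, Pik3ip1 (0.94) and Gadd45g (0.94). Over the 9 arrays, 4 of these 5 stayed. For Alx4 they were Inpp5f (0.89), Rgs4 (0.87), a regulator of G-protein signalling, Ugdh (0.87), which encodes an enzyme that makes a precursor of matrix sugars, Igfbp2 (0.86), which encodes a binding protein for insulin-like growth factors, and Wls (0.86), which is needed for Wnt secretion. For Alx4, 2 of 5 stayed over the 9 arrays. Its mean lay under the filter level in every group but medial E10.5, so its correlations are uncertain.

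The paralog Msx3, which in the mouse is a gene of the dorsal neural tube, had group means of 4.69 to 4.90, about the filter level. It differed by -0.14 ± 0.23 between regions at E10.5 (limma adjusted p = 0.833) and by 0.21 ± 0.26 between E11.5 and E10.5 (limma adjusted p = 0.83).

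BMP ligands are known inducers of Msx genes in the mouse face. Of 4 tested ligand genes, 2 were higher in medial E10.5 tissue, with a list median of 1.11 against -0.01 over all tested probe sets. Bmp4 averaged 9.64 in medial tissue, against 7.68 in lateral tissue, a difference of 1.96 ± 0.18 (limma adjusted p = 0.000802), and Bmp5 differed by 1.72 ± 0.26 (limma adjusted p = 0.00879). At E11.5, Bmp4 averaged 9.95, against 9.64 at E10.5, a difference of 0.31 ± 0.20 (limma adjusted p = 0.593), on the arrays on which Msx1 and Msx2 were lower. Bmp2 was higher at E11.5 by 1.14 ± 0.22 (limma adjusted p = 0.0226), a call that was lost without the 2 arrays of low signal. Of 7 tested receptor and Smad genes, Bmpr1b, which encodes a type I receptor, was lower in medial E10.5 tissue, with a difference of -2.54 ± 0.29 (limma adjusted p = 0.00221), and 6 did not pass. At E11.5 all 7 did not pass, and the list median was 0.06.

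Antagonists and feedback genes of the BMP pathway, and the Id genes that BMP signals induce, were partly higher in medial E10.5 tissue. Of 6 tested antagonist and feedback genes, 3 were higher: Bambi, which encodes a pseudoreceptor (1.74 ± 0.14), Smad6, an inhibitory Smad gene (1.39 ± 0.12), and Fst, which encodes follistatin (1.27 ± 0.19). The lateral Fst mean of 4.55 lay under the filter level, so the size of that difference is uncertain. At E11.5, Bambi was lower, with a difference of -2.57 ± 0.15 (limma adjusted p = 6.1e-05), Fst was higher by 3.11 ± 0.21 (limma adjusted p = 8.59e-05) and 4 did not pass. Of 4 Id genes, Id4 (1.74 ± 0.14) and Id1 (1.04 ± 0.17) were higher in medial E10.5 tissue, and 3 of 4 passed without the arrays of low signal. At E11.5, Id4 was lower, with a difference of -1.78 ± 0.16 (limma adjusted p = 0.00043), and so was Id2, with -1.26 ± 0.20 (limma adjusted p = 0.009).

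Of 7 distal arch transcription factor genes, 5 were higher in medial E10.5 tissue: Hand1, Hand2, Gata3, Isl1 and Tbx3, with a list median of 1.45. At E11.5, 4 of the 7 were lower than at E10.5 and 0 were higher, with a list median of -1.002 (3 without the arrays of low signal). These were Tbx2 (-2.88 ± 0.25), Tbx3 (-1.72 ± 0.13), Gata3 (-1.26 ± 0.14) and Hand2 (-0.80 ± 0.18). Set beside them, the Msx differences of -2.67 to -4.13 were measured on the same arrays and share their E10.5 group; their difference from these values was not tested.

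Of 6 tested paired-type and related homeobox genes, 3 were lower in medial E10.5 tissue, namely Shox2 (-4.70 ± 0.19), Barx1 (-3.47 ± 0.38) and Pitx1 (-1.80 ± 0.37), and 3 did not pass; the list median was -1.02. Prrx1 and Prrx2, which did not pass between regions, were lower at E11.5 (-2.13 ± 0.19 and -1.81 ± 0.13), Shox2 was higher by 1.04 ± 0.22 and the list median was -0.71. The medial Shox2 means, 3.82 at E10.5 and 4.86 at E11.5, were not above the filter level. The sizes of its differences between regions and between stages are thus uncertain. Without the 2 arrays of low signal, 2 genes were lower and 0 higher at E11.5.

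Genes known as partners or dependents of Msx1 in mouse tooth mesenchyme were called in both directions at E10.5. Of 8 tested genes, Ptch1, the hedgehog receptor gene, was higher in medial E10.5 tissue (1.101 ± 0.22, limma adjusted p = 0.0327), Dlx2 and Osr2 were lower (-2.29 ± 0.15 and -2.59 ± 0.25) and 5 did not pass, with a list median of -0.12. The medial Osr2 mean of 3.76 lay under the filter level, so the size of its difference is uncertain. At E11.5, Dlx2 (-2.73 ± 0.17) and Lef1, a mediator of Wnt signals (-0.9999 ± 0.14), were lower and 6 did not pass, with a list median of -0.19. The Dlx2 mean at E11.5, 4.78, lay under the filter level. Pax9, a partner of Msx1 in mouse tooth mesenchyme, differed by 0.29 ± 0.30 at E11.5 (limma adjusted p = 0.782). Runx2, also on this list, had no probe set with a single symbol here.

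**Figure D4:**
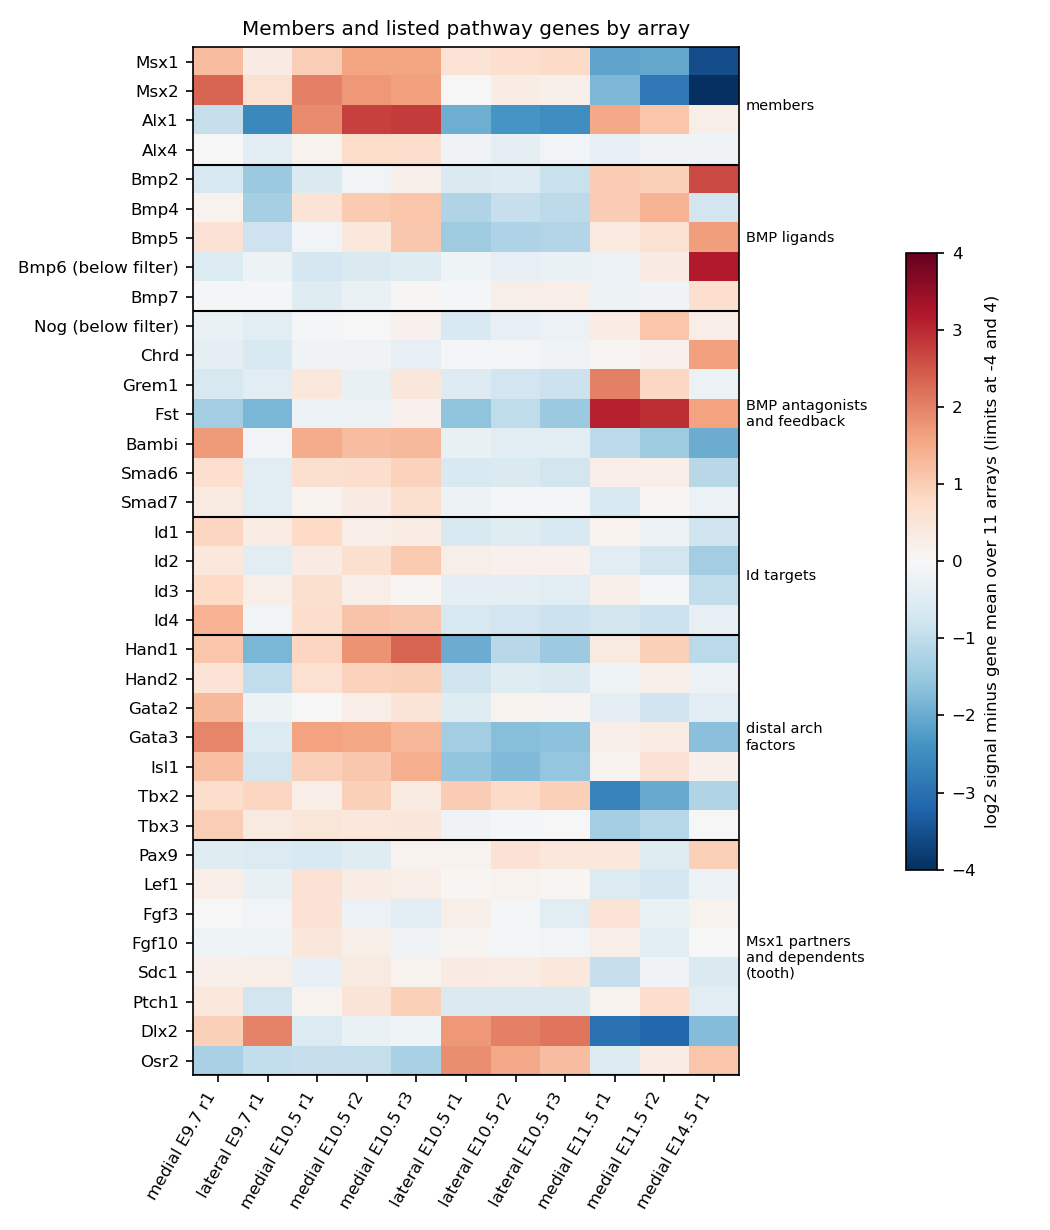
Log2 signal minus each gene's mean over the 11 arrays (colour, limits at -4 and 4) for the members and listed genes (rows, each by its brightest probe set) on every array (columns, r = replicate). Msx1 and Msx2 are below their means on both E11.5 arrays and the E14.5 array, whereas Bmp4 is above its mean on both E11.5 arrays, and Alx1 is above its mean on all medial arrays from E10.5 on.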

How the data were processed

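RNA of 11 mandibular arch samples was labelled from 3 ug of total RNA, per the labels, and measured on Affymetrix arrays. Per the submitters' processing notes, the authors used Affymetrix Expression Console 1.1; the algorithm is not given in the sources used here. Values as deposited were taken as log2 signals, a base inferred from their range (0.0887 to 14.5), and were quantile normalized here because 2 arrays had far lower medians. Probe sets were named from the array annotation (34958 with 1 symbol, 932 with several, 9211 with none); 34754 matched RefSeq names (GRCm38.p6) by Entrez ID. Groups were compared with limma (version 3.58.1, R 4.3.3), each group having its own mean, with 5 residual degrees of freedom over 24399 probe sets and Benjamini-Hochberg adjustment; the fit was tested on simulated data. Comparisons with 1 array on a side had no test: a probe set was counted where all arrays of one side lay 2-fold or more beyond all of the other, provided that at least 1 compared array reached the filter level. Each listed gene is shown by its brightest probe set. Differences of listed genes are given in full, also where a mean lay under the filter level and the size is uncertain. Named genes are all members, up to 4 per list by adjusted p at E10.5 (medial against lateral), and the 5 genes most correlated with each member; marker genes, genes named for their E11.5 values and the motifs were added with values in view. Members and lists were chosen with earlier results of these data known. Arrays were grouped by 18 hybridization control probe sets into 4 groups. Alternatives covered scaling, filter, unit, variance model, weights, block and left-out arrays.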

Additional observations from a re-analysis of the deposited data

How the results depend on the processing

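With quantile normalization the medial against lateral comparison at E10.5 called 718 probe sets and medial E11.5 against E10.5 called 1048. On the values as deposited, where the median of all differences was -1.04 and -0.68, these counts were 2 and 0 (126 and 78 at an unadjusted p under 0.05), no member passed, and signs turned for the dimmer (-0.11) and brighter (-0.22) Msx1 probe sets and Alx4 (-0.37) at E10.5. In the untested comparisons they turned in medial E10.5 against E9.7 for the dimmer (-1.04) and brighter (-0.99) Msx1 probe sets, Alx4 (-0.20) and the dimmer Msx2 probe set (-0.63), in lateral E10.5 against E9.7 for the dimmer Alx1 probe set (0.22), and in E14.5 against E11.5 for the dimmer (0.59) and brighter (0.12) Msx1, the dimmer (0.76) and brighter (0.65) Alx1 and the dimmer Msx2 (0.68) probe sets. By construction these values keep the scale of the 2 arrays of low signal. Relative to those medians the members kept their direction at E10.5. Centring moved the E10.5 median by about 0.1, to 0.09, and gave 645 calls at E11.5. The E10.5 count was 3111 with array weights and 1842 with control-probe group as a fixed effect. The E11.5 count was 554 with only the 2 groups compared, 3152 with control-probe group and 1682 with the replicate block. Leaving out 1 array gave 395 (without lateral replicate 3) to 754 calls at E10.5, with 396 without lateral replicate 2, and 722 to 1090 at E11.5. The replicate numbers were not taken to pair the arrays, since not every deviation correlated above 0.1: the values were 0.12, -0.25 and 0.47 for the 3 same-numbered pairs at E10.5 and 0.60 and 0.44 for the 2 pairs of E11.5 with E10.5. The block gave 614 calls at E10.5, kept 4 member calls there and made 4 at E11.5, adding Alx4. Counts past 2-fold were 320 at E9.7, 205 for medial and 390 for lateral E10.5 against E9.7 and 4727 for E14.5 against E11.5; at 1.5-fold they were 1127, 736, 1728 and 8607. The medial count was 91 as deposited (0 higher, 91 lower) and 350 without the 2 arrays of low signal; as deposited, the lateral split was 275 higher and 96 lower and that at E14.5 4215 higher and 81 lower. Leaving out 1 array gave 239 to 350 (medial, the highest without replicate 1), 445 to 750 (lateral, the highest without replicate 1) and 5955 to 6496 (E14.5). Apart from the values as deposited, the tested Msx2 probe set and both Alx1 probe sets passed at E10.5 under every alternative that tested them, and both Msx1 and that Msx2 probe set passed at E11.5 under every one. Depth in the sense of detection above background is not known here, so values near the filter level are uncertain.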
